A study of Mus musculus with 2 samples.

Results

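Promoters that carry a CCAAT box of the kind bound by the transcription factor NF-Y made up 2028 of the 8538 promoter regions that were accessible in both replicates of the mouse cell line G1E (23.8%, 95% exact binomial interval 22.9 to 24.7%). Accessible regions came from the authors' peak lists of the 2 replicates, of which 25799 remained after overlapping peaks were merged, 17425 had a peak in both replicates, and 8538 of those lay within 1000 bp of a transcript start of a protein-coding gene. A region was a member when the 201 bp around its strongest summit in replicate 1, the base with the most signal in the peak, held a CCAAT box on either strand and no match to the motif of ETS factors. The CCAAT box was read as CCAAT followed by C or G and then by A or G, and the ETS motif as CCGGAA followed by A or G and then by C or T. Another 231 promoter regions held both motifs, 1188 held the ETS motif alone and 5091 held neither.

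NF-Y is a complex of NF-YA, NF-YB and NF-YC. NF-YB and NF-YC pair through histone-fold domains that resemble those of histones H2A and H2B, and NF-YA reads the CCAAT sequence in the minor groove and bends the DNA. CCAAT boxes bound by NF-Y are known from promoters of cell cycle genes, histone genes, genes of sterol synthesis and genes of the endoplasmic reticulum (ER) stress response.

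The assay was ATAC-seq, which marks open chromatin by the insertion of sequencing adapters by a transposase. G1E is an erythroid progenitor line without functional GATA1, labelled as male and of strain C57BL/6J, and each replicate was made from 50000 cells with no treatment named in the labels. The labels do not say whether the replicates came from separate cultures, so the spread between them may be technical. There was 1 group and no contrast between conditions, and all values are therefore descriptions without a test. Promoter regions were present in both replicates at 5 of 5 erythroid genes (Gata1, Klf1, Tal1, Zfpm1 and Hba-a2) and at 0 of 4 genes of other cell types (Alb, Camk2a, Col1a2 and Elane). Not all erythroid genes had one: in the list of globin and heme synthesis, 13 of 20 genes did and 7 did not, Alas2, Hbb-bs and Hbb-bt among them. The lists held 26083 peaks in replicate 1 and 27810 in replicate 2, and the depth of the libraries is unknown, as such lists do not state read numbers.

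Member promoters with several boxes show how the sites are arranged. The first set below was chosen because the boxes of each promoter lie on 1 strand, in Gpn1 and Rcl1 also in near-equal steps. Such examples are not typical: of 113 members with 3 or more boxes, 22 (19.5%) had all neighbouring boxes 25 to 46 bp apart. In these and all other sequences, written 5′ to 3′ along the gene (mm10), capitals mark the CCAAT box, which ends in ATTGG when the box lies on the other strand. The stretches lie upstream of every annotated exon, at chr5:31494607-31494716 for Gpn1, chr19:29101201-29101317 for Rcl1 and chr11:121237025-121237192 for Narf, all on the plus strand.
Gpn1: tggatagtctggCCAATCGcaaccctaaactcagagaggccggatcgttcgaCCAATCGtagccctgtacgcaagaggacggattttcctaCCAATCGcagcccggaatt
Rcl1: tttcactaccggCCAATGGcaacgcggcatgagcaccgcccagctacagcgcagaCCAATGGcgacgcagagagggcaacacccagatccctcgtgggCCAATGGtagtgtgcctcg
Narf: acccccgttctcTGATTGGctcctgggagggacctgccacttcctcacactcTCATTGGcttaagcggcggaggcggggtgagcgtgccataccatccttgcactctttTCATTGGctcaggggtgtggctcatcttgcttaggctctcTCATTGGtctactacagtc

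In Gpn1, which encodes a GTPase needed for nuclear import of RNA polymerase II, the 3 boxes lay 120, 80 and 41 bp upstream of the start site, in steps of 40 and 39 bp. All 3 read CCAATCG. In Rcl1, whose product acts in maturation of small-subunit ribosomal RNA, the 3 boxes lay 160, 117 and 74 bp upstream in 2 steps of 43 bp, and all read CCAATGG. Narf held 4 boxes on the other strand, 212, 172, 115 and 75 bp upstream, in steps of 40, 57 and 40 bp. The peak signal, the authors' enrichment value for each peak, was 20.3 in replicate 1 and 21.9 in replicate 2 for Gpn1, 19.9 and 22.6 for Rcl1, and 16.9 and 18.5 for Narf. Of all regions in each replicate's own list, 99.7% and 99.6% had a lower signal than Gpn1, and 97.2% and 97.4% had a lower signal than Narf.

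A second set shows boxes on mixed strands and irregular spacing, and boxes of an erythroid and a histone gene. The stretches lie at chr3:95588763-95588933 (Golph3l, plus strand), chr13:23562421-23562561 (Hist1h3e, minus strand), chr4:120815790-120815861 (Nfyc, minus strand), chr11:32296389-32296419 (Hba-a2, plus strand) and chr17:22225675-22225705 (Zfp994, minus strand).
Golph3l: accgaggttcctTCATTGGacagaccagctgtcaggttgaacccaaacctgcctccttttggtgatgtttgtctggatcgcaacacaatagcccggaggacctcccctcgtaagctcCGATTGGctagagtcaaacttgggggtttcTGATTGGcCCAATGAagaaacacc
Hist1h3e: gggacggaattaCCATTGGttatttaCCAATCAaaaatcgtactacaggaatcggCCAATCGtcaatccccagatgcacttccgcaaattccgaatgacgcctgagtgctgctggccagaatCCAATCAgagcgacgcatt
Nfyc: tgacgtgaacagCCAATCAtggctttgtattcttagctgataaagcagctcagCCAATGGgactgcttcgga
Hba-a2: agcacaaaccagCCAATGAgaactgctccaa
Zfp994: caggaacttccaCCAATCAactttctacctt

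Golph3l, which encodes a Golgi protein related to GOLPH3, had 4 boxes at 155, 50, 20 and 14 bp upstream, of which the last faced away from the others. Hist1h3e, a replication-dependent histone H3 gene, had 4 boxes at 176, 164, 135 and 68 bp upstream. Hba-a2, an adult alpha-globin gene, had 1 box at 86 bp. Zfp994, a zinc finger gene, had 1 box at 75 bp, and its signal of 20.8 and 23.1 was among the 12 highest of all members by mean rank.

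**Figure D1:**
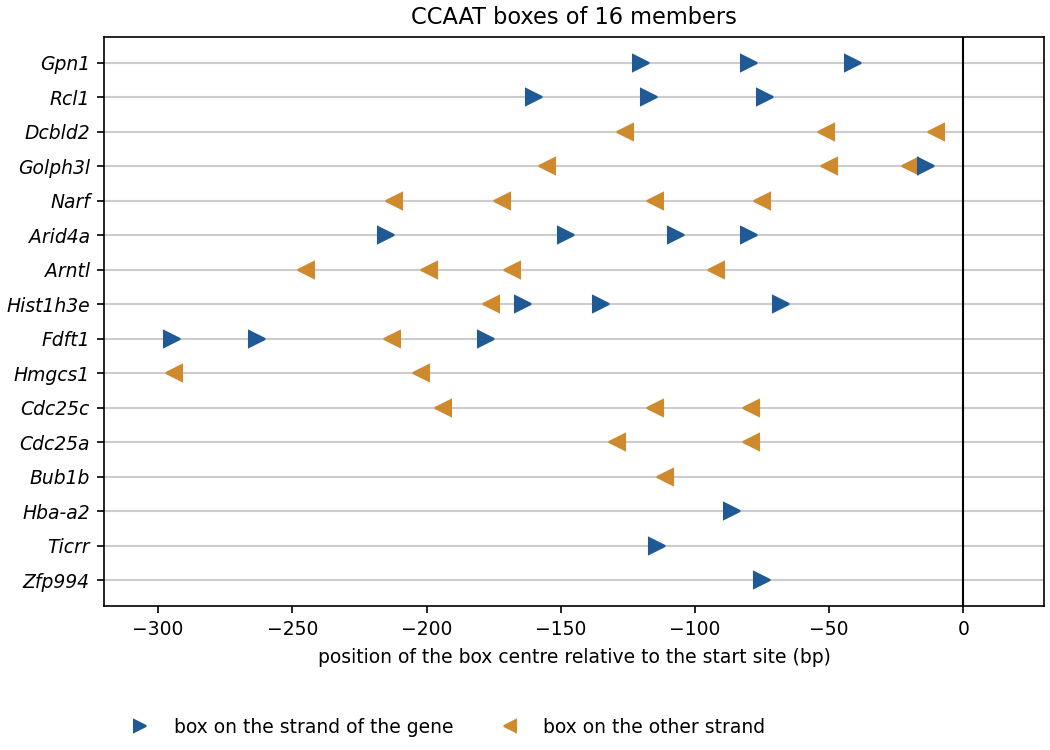
CCAAT boxes of 16 members, placed by the distance of the box centre to the nearest start site in bp (horizontal axis), with triangles that point right for boxes on the strand of the gene and left for boxes on the other strand. Gpn1, Rcl1 and Arid4a have boxes on the strand of the gene alone, Narf and Arntl on the other strand alone, and Fdft1 on both.

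A CCAAT box lay within 100 bp of the summit in 2259 of 8538 promoter regions (26.5%, interval 25.5 to 27.4%). In windows of the same length centred on the outermost start site, it was found at 1792 of 8507 protein-coding genes with such a region (21.1%) and at 1389 of 13431 without (10.3%, interval 9.83 to 10.9%). Among regions with a CCAAT box, 231 of 2259 (10.2%) also held the ETS motif, against 1188 of 6279 (18.9%) of those without. The 2028 members held 2725 boxes. The string CCAATCA made up 1091 of them (40.04%), CCAATGG 655 (24.04%), CCAATGA 511 (18.8%) and CCAATCG 468 (17.2%). At the start sites of all protein-coding genes, the same strings made up 40.5%, 24.5%, 20.4% and 14.6% of 3713 boxes. Only 19 of the 2725 boxes (0.697%) lay in annotated repeats, which the genome gives in lower case.

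The boxes lay upstream and close to the start site. Of 2725 boxes, 2351 (86.3%) were upstream of the nearest transcript start. The median position of all boxes was 62 bp upstream, with quartiles at 114 and 24 bp upstream, and 1264 (46.4%, interval 44.5 to 48.3%) lay 40 to 140 bp upstream. That band held at least 1 box in 1060 of the 2028 members (52.3%). By 10 bp steps, the counts were highest at 21 to 30 bp upstream (198 boxes) and at 51 to 60 bp (190 boxes), with 152 boxes at 31 to 40 bp between them. At 191 to 200 bp there were 25 boxes. A further 257 boxes (9.43%) were over 300 bp from any start. Members with more boxes reached farther out: the median position was 56 bp upstream in members with 1 box, 63 bp with 2, 83 bp with 3 and 121 bp with 4.

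Crowding of boxes close upstream of the start was also seen without regard to summits. Around the outermost start sites of the 8507 genes with an accessible promoter, boxes occurred at 23.0 per 1000 starts per 10 bp between 31 and 100 bp upstream, 4.87 between 201 and 300 bp upstream and 3.61 between 30 and 99 bp downstream. For the 13431 genes without, the values were 10.4, 3.35 and 2.24, with the same order of the 3 stretches. The high counts at 21 to 30 bp upstream were not shared by these genes, which had 6.78 there and 13.8 at 61 to 70 bp. Genes with an accessible promoter had 26.9 and 26.6. The distance is that of each box to its own nearest start, so the boxes of a region can count toward different starts of a gene. In regions that serve genes on both strands, they can count toward different genes. Such regions made up 294 of 2028 members (14.5%), 233 of 1188 regions with the ETS motif alone (19.6%) and 545 of 5091 with neither motif (10.7%).

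**Figure D2:**
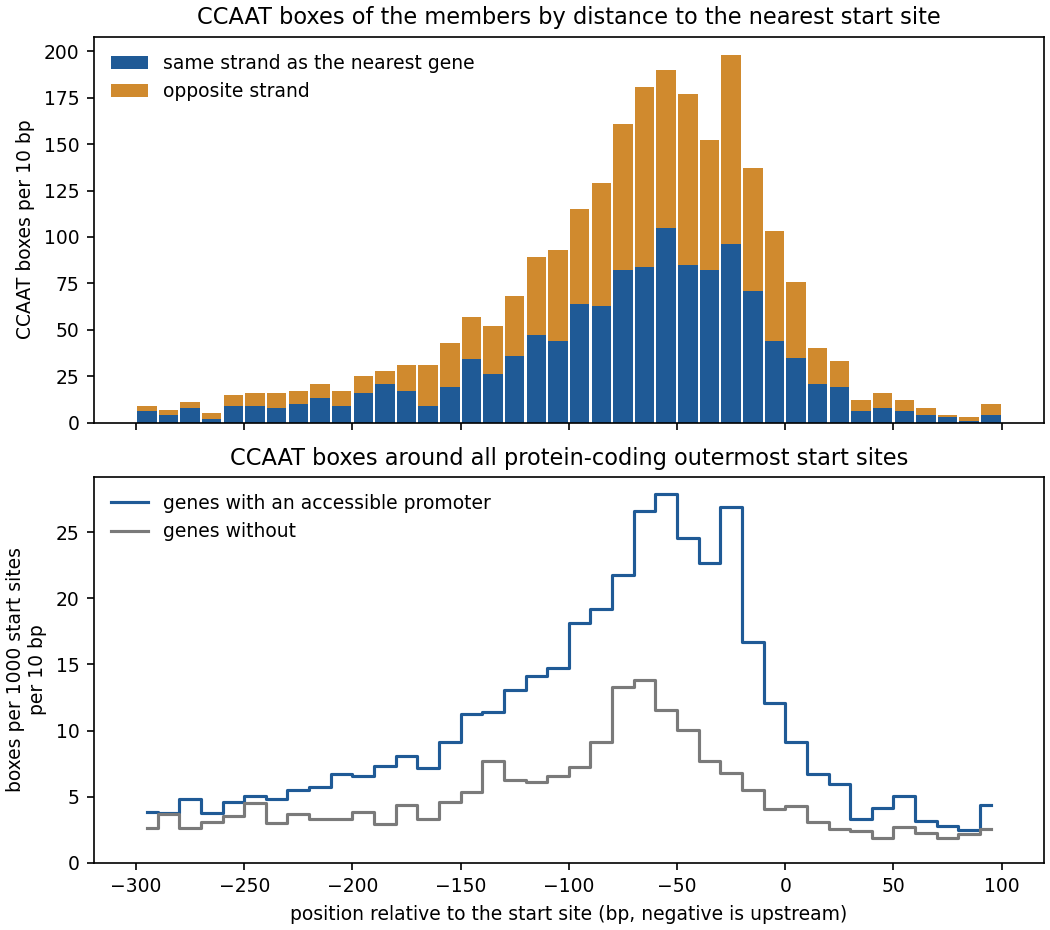
Top, boxes of the members per 10 bp by distance to the nearest start site (bp, negative is upstream), stacked by strand relative to the gene. Bottom, boxes per 1000 outermost start sites per 10 bp for genes with and without an accessible promoter. The counts crowd within 100 bp upstream, with 198 boxes in the highest bin, and both kinds of gene share the upstream shoulder.

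Boxes lay on the 2 strands in near-equal numbers. In members with start sites on 1 strand, 1175 of 2311 boxes (50.8%, interval 48.8 to 52.9%) lay on the strand of the gene. The share was 51.6% for boxes 20 to 60 bp upstream, 51.3% at 61 to 100 bp and 51.9% at 101 to 140 bp. Of the 4 strings, CCAATGG was on the strand of the gene in 314 of 567 cases (55.4%, interval 51.2 to 59.5%), while CCAATCA was there in 49.7%, CCAATGA in 50.5% and CCAATCG in 47.3% of cases.

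The rule placed every member's box within 100 bp of the replicate 1 summit, where the median distance was 33 bp. The replicate 2 summit was not used by the rule. There, the median distance was 31 bp, 2568 of 2725 boxes (94.2%) lay within 100 bp, and 1926 of 2028 members (94.97%) kept at least 1 box in the window. The 2 summits of a member differed by a median of 14 bp. Summits of members lay a median of 65 bp upstream of the nearest start, those of regions with the ETS motif alone 28 bp, with both motifs 46 bp and with neither 42 bp. The nearest box was within 20 bp of the summit in 895 members in replicate 1 (44.1%) and in 917 in replicate 2 (45.2%).

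More than 1 box was found in 573 members (28.3%, interval 26.3 to 30.3%): 460 had 2 boxes, 102 had 3 and 11 had 4. These gave 697 pairs of neighbouring boxes, at a median of 43 bp between centres, with quartiles at 31 and 65 bp. In 462 pairs (66.3%, interval 62.6 to 69.8%) both boxes lay on 1 strand. The other pairs were divergent (144, the boxes read away from each other) or convergent (91, toward each other). Spacing can be no longer than the window, and each pair was counted once.

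Pairs on 1 strand were not spread evenly over distance. By 5 bp steps chosen after the counts were seen, 25 pairs were 24 to 28 bp apart, 108 were 29 to 33 bp, 20 were 34 to 38 bp, 60 were 39 to 43 bp, 29 were 44 to 48 bp, 37 were 49 to 53 bp and 17 were 54 to 58 bp. The fullest 5 bp steps thus lay 10 bp apart, but steps of this width can give only multiples of 5 bp. By single distances, the most frequent was 32 bp, with 30 pairs. Within the step of 39 to 43 bp, the highest counts were at 40 and 41 bp, with 15 pairs each. Only 3 of 462 pairs (0.649%) were closer than 15 bp. Cyclin B genes are examples, named after their values were seen: the boxes were 32 bp apart in Ccnb1 and 33 bp in Ccnb2, which encode the cyclins that activate CDK1 at mitosis, and 30 bp apart in Aurkb, which encodes a mitotic kinase.

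Divergent pairs peaked at other distances. Their median was 33 bp, their most frequent distance was 17 bp (12 of 144 pairs), and 31 pairs were 25 to 28 bp apart (21.5%) against 10 pairs at 29 to 33 bp (6.94%) and 15 at 34 to 36 bp. Convergent pairs had a median of 57 bp and their most frequent distance was 36 bp, with 6 pairs, and 14 of 91 were 36 to 38 bp apart. Histone promoters supplied 4 of those 14 pairs, and the genes of this family resemble each other in sequence. Without histone members, the 29 to 32 bp pairs on 1 strand were 94 of 455 (20.7%), against 95 of 462 (20.6%) with them. Counted in any orientation, pairs 28 to 33 bp apart made up 135 of the 697 pairs of the members (19.4%, interval 16.5 to 22.5%). In windows at the outermost start sites, again in any orientation, they made up 95 of 410 pairs (23.2%, interval 19.2 to 27.6%) where the gene had an accessible promoter. Where it had not, they were 21 of 122 (17.2%, interval 11.0 to 25.1%). The share was thus not higher in the members than at start sites of genes with an accessible promoter.

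**Figure D3:**
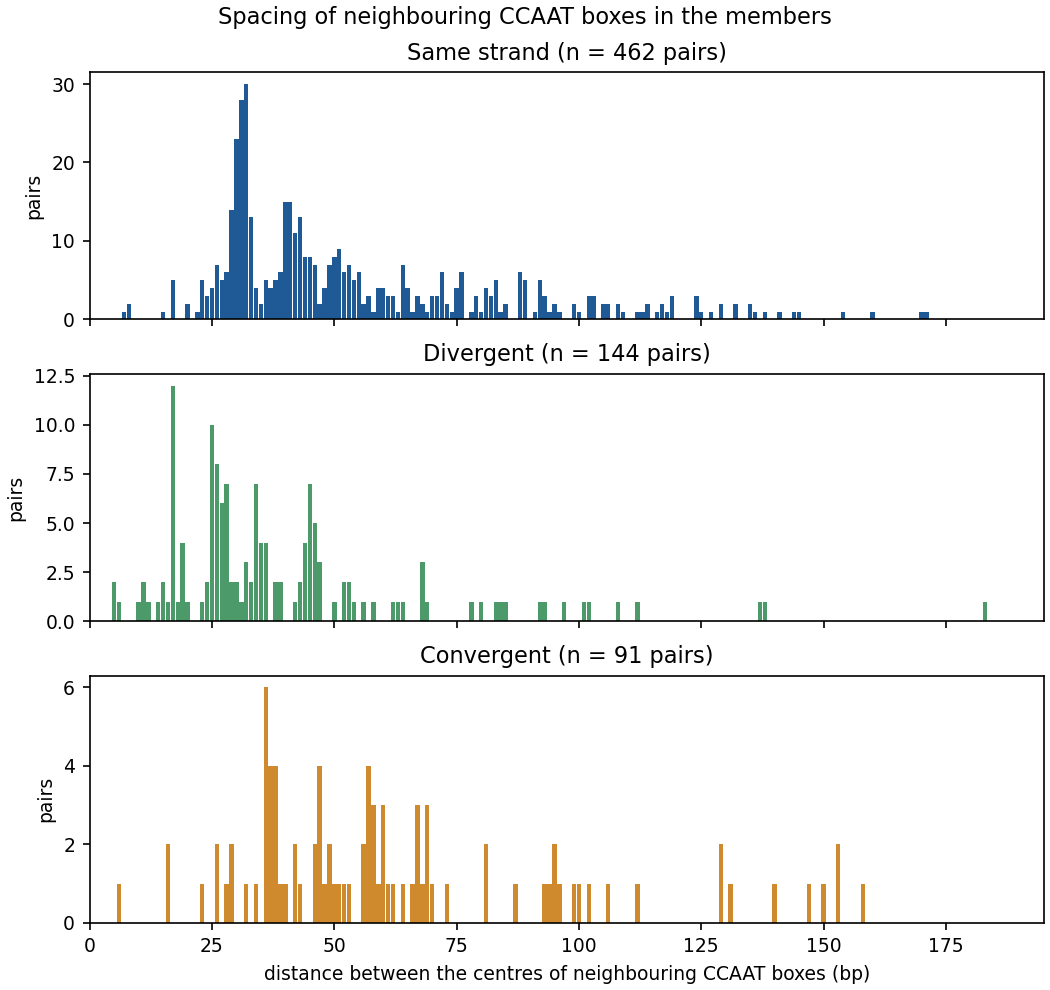
Number of neighbouring box pairs in the members by distance between box centres (bp), for pairs on 1 strand (462 pairs), divergent pairs (144) and convergent pairs (91). Pairs on 1 strand crowd at 29 to 33 bp and again at 39 to 43 bp, divergent pairs at 17 bp and 25 to 28 bp, and convergent pairs at 36 to 38 bp.

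Members had high peak signals. The deposited signals are not scaled between libraries, and each value was therefore ranked in its own list. The median signal of the members was 12.04 in replicate 1, at the 80.6th percentile of the list, and 13.6 in replicate 2, at the 82.5th. Regions with the ETS motif alone had medians of 10.3 and 11.97, at percentiles 69.5 and 73.7, and regions with neither had 8.98 and 10.2, at percentiles 58.2 and 61.2. The 231 regions with both motifs were at percentiles 85.1 and 86.6. Of the members, 649 (32.002%) in replicate 1 and 711 (35.1%) in replicate 2 were in the top 10% of the list, against 11.3% and 12.1% of the regions with neither. The ranges overlapped widely, and 355 members (17.5%) in replicate 1 and 303 (14.9%) in replicate 2 fell in the lower 50% of the list. Ranks of the members in the replicates had a Spearman correlation of 0.868 over 2028 regions, a description of values that share libraries and caller. The median widths of the members were 493.5 and 508.5 bp, and those of regions with neither motif 475 and 499 bp.

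Signal rank was higher with more boxes, up to 3. In replicate 1 the median percentile was 58.2 with none, 77.7 with 1 box, 85.2 with 2, 90.8 with 3 and 88.1 in the 11 members with 4. In replicate 2 it was 61.2, 79.9, 87.2, 92.5 and 87.2. Over the 7119 promoter regions without the ETS motif, which share the same libraries, the Spearman correlation of box number and percentile was 0.313 in replicate 1 and 0.319 in replicate 2, and within the 2028 members 0.183 in both. Members with a box 40 to 140 bp upstream were at percentiles 83.7 and 86.1, those without at 76.8 and 77.7. Signal rank also differed by GC content, but not steadily from low to high. The Spearman correlation of GC content and percentile was -0.041 in replicate 1 and -0.0017 in replicate 2 over all 8538 promoter regions. Within the members it was -0.115 and -0.077. In the promoter regions of lowest, middle and highest GC content, members were at percentiles 82.9, 84.6 and 72.2 in replicate 1. Regions with neither motif were at 54.3, 65.7 and 56.7. Members ranked higher in each of the 3 classes of GC content, also in replicate 2 (83.9, 85.5 and 77.7 against 56.0, 69.1 and 60.9).

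**Figure D4:**
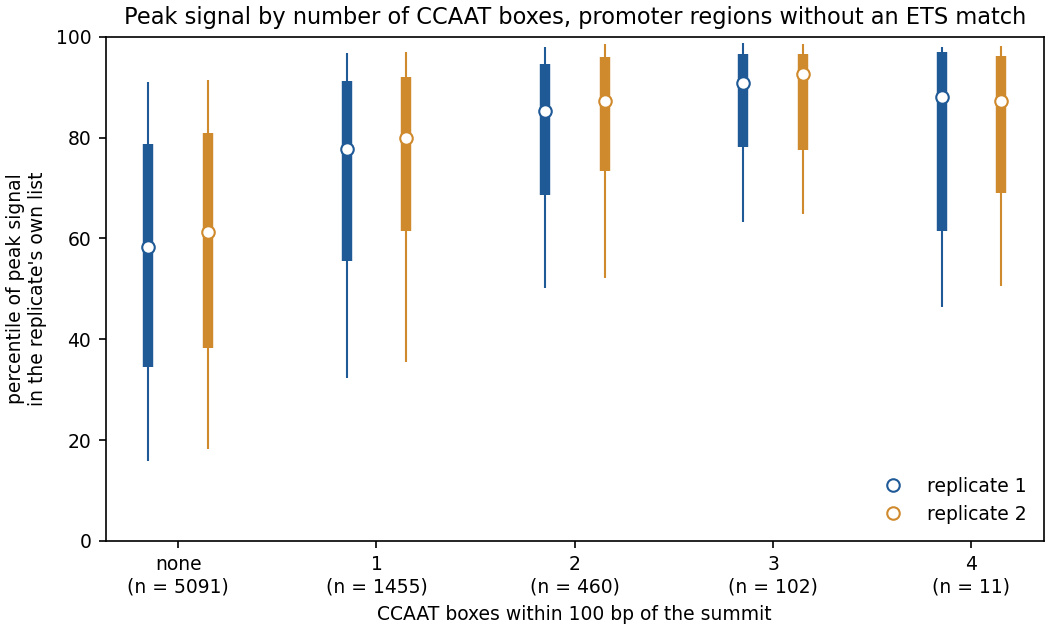
Percentile of peak signal in each replicate's own list (vertical axis) for promoter regions without the ETS motif, by number of CCAAT boxes in the window. Points are medians, thick bars quartiles and thin bars the 10th to 90th percentiles. The medians climb from 58.2 and 61.2 with no box to 90.8 and 92.5 with 3 boxes, while the ranges overlap.

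The strongest members came from varied genes. The 12 with the highest mean percentile were Fer, Rnft2, Zfp994, Zfp950, Dcbld2, Ticrr, Uggt2, Gm49359, Zfp97, Rcl1, Mterf2 and Gpn1. Their signals were between 19.7 (Ticrr) and 22.9 (Fer) in replicate 1 and between 21.6 (Zfp97) and 24.1 (Ticrr) in replicate 2. The region of Fer, a cytoplasmic tyrosine kinase gene, had signals of 22.9 and 23.0 and 1 box 111 bp upstream. Dcbld2, which encodes a membrane protein, had 3 boxes at 126, 51 and 10 bp upstream, all on the other strand. Ticrr, an initiator of DNA replication, had 1 box at 114 bp. Zinc finger symbols were borne by 5 of the 50 strongest members (interval 3.33 to 21.8%) and by 77 of all 2028 (3.80%). Zinc finger genes lie in clusters of similar copies, and how reads with several possible origins were placed is not given in the sources used here.

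At the other end stood S1pr1, Tprgl, Zmynd8 and Usp29 with Peg3. S1pr1, a receptor for sphingosine-1-phosphate, had signals of 3.84 and 4.44 and its box 215 bp downstream of the nearest annotated start. Zmynd8, a chromatin reader gene, had 3 boxes and signals of 3.93 and 3.49. The boxes lay 9 and 4 bp upstream and 10 bp downstream, each of its own nearest annotated start. Those starts were not the same for all boxes, and the neighbouring centres were 14 and 26 bp apart. The shared promoter of Usp29 and the imprinted gene Peg3 had signals of 3.53 and 3.10, the lowest of all members in both replicates. Members near the limits of the rule were weaker on the whole. The 125 members whose nearest box was over 80 bp from the summit were at percentiles 75.6 and 75.9, and 167 regions without the ETS motif whose box lay 101 to 150 bp away, just outside, were at 67.4 and 69.3. The 50 members 501 to 1000 bp from a start had median signals of 7.53 and 8.50, and 35 CCAAT regions at 1001 to 1500 bp had 7.61 and 8.86.

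Of the 8507 protein-coding genes with a promoter region in both replicates, 2297 had a member (27.0%). Against this background, 23 of 26 genes of sterol and fatty acid synthesis had a member (88.5%, interval 69.8 to 97.6%), as did 20 of 25 genes of ER chaperones and the unfolded protein response (interval 59.3 to 93.2%), 43 of 55 replication-dependent histone genes (78.2%, 65.0 to 88.2%) and 22 of 29 G2/M genes of the cell cycle (75.9%, 56.5 to 89.7%). For genes of the G1/S transition and DNA replication it was 10 of 23 (43.5%), for heat shock proteins 7 of 18 (38.9%), for globin and heme synthesis 5 of 13 (38.5%) and for RNA splicing factors 5 of 25. The intervals of the last 4 lists included 27.0%. The 43 histone genes came from 30 member regions, so they were not independent and their interval is likely too narrow. The lists were written with earlier results of these data known and name gene classes already known for CCAAT boxes, so their counts are no independent evidence.

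**Figure D5:**
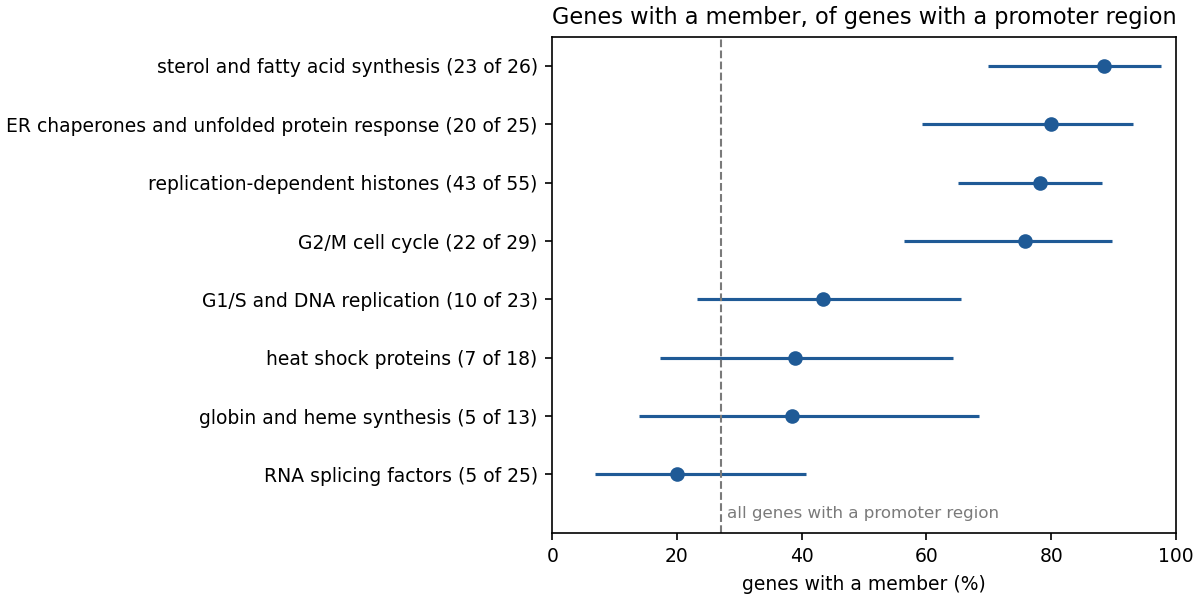
Percentage of genes with a member among genes with a promoter region in both replicates, for 8 gene lists, with 95% exact binomial intervals that cover counting error only. The dashed line marks the 27.0% of all 8507 genes. Sterol and fatty acid synthesis, ER chaperones, histones and G2/M genes lie to its right with intervals that do not reach it. Histone genes often share a region, so their interval is likely too narrow.

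Sterol promoters ranked high and often carried more than 1 box. Their members were at median percentiles of 88.3 and 91.0. Of these, 12 of 24 had 2 or more boxes (50%, interval 29.12 to 70.88%), against 28.25% of all members, just below that interval. Mvk, mevalonate kinase, shares its promoter with Mmab and held 3 boxes, with signals of 18.2 and 19.6. Fdft1, squalene synthase, had 4 boxes at 295, 263, 213 and 178 bp upstream and signals of 17.4 and 16.6. Hmgcs1, which makes HMG-CoA, had boxes at 294 and 202 bp upstream and signals of 17.2 and 18.2, and Hsd17b7 and Dhcr7, which act later in cholesterol synthesis, had 2 boxes each. The genes with a region that were no member were Cyp51, Ebp and Pmvk.

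Promoters of G2/M genes often held several boxes. In the G2/M list, 16 of 22 members (72.7%, interval 49.8 to 89.3%) had 2 or more boxes, against 28.3% of all members, and the members were at percentiles 84.6 and 84.9. In the G1/S list, it was 3 of 11 members (27.3%), at percentiles 79.1 and 73.9. Among G2/M genes, Ube2c, an E2 of the anaphase-promoting complex, had 2 boxes and signals of 18.2 and 18.4. Cdc25c, a phosphatase that activates CDK1, had 3 boxes at 194, 115 and 79 bp upstream and signals of 16.6 and 20.2. Cdc25a had boxes at 129 and 79 bp and signals of 17.4 and 18.8. The spindle checkpoint gene Bub1b had 1 box at 111 bp and signals of 17.4 and 19.1. Of the G1/S genes, the replication helicase subunit gene Mcm3 was the strongest, with boxes at 115 and 30 bp upstream and signals of 19.7 in both replicates, followed by Mcm5, Pcna and Mcm6.

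G2/M promoters can also hold a cell cycle homology region (CHR), TTTGAA, downstream of the CCAAT boxes. Cdk1 and Mki67 are shown for this arrangement, at chr10:69352974-69353006 and chr7:135716486-135716559, both on the minus strand, with the boxes and the first TTTGAA after them in capitals.
Cdk1: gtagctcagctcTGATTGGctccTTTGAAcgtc
Mki67: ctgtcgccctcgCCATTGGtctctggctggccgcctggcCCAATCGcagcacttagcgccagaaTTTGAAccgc

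Along the gene, TTTGAA occurred 5 to 70 bp downstream of a box 51 times in 42 members, and 5 to 70 bp upstream of a box 46 times in 41 members. Over all members, the sides thus had like numbers. The downstream matches included 8 genes of the G2/M list (Ccnb2, Cdc20, Cdc25c, Cdk1, Ect2, Mki67, Plk1 and Top2a), and the upstream matches 2 of them (Cdc20 and Ect2). In the whole windows, TTTGAA was found in 140 members (6.90%) and in 5.83% of all promoter regions.

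Histone promoters had low signals for members. Their members, 30 regions for 43 genes since H2A and H2B genes often share a promoter, were at median percentiles of 51.6 and 55.2. All members were at 80.6 and 82.5. Of the 30 regions, 14 had 2 or more boxes (46.67%, interval 28.34 to 65.67%), against 28.25% of all members, just below that interval. Hist1h2bc with Hist1h2ac had signals of 12.1 and 12.9, Hist3h2a 10.3 and 13.4, Hist1h2bh with Hist1h3f 10.9 and 12.5, and Hist1h3e 10.03 and 14.6. Histone genes of a class are near-identical, so peaks in them are uncertain where reads align in several places.

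ER promoters were at percentiles 89.2 and 86.9, and 9 of 22 members had 2 or more boxes (40.91%). The interval of 20.71 to 63.65% included the 28.25% of all members. Sel1l, a part of the ER ubiquitin ligase, had boxes at 117 and 59 bp upstream and signals of 19.2 and 20.7. Sdf2l1, Creld2 and Dnajc3, whose products act in folding in the ER, had signals of 16.3 and 19.6, 17.2 and 17.7, and 16.1 and 18.04. The ER stress element is known as a CCAAT box and the sequence CCACG with 9 bases between. Exactly this gap occurred in 11 members, against 7 boxes with a gap of 6 bases and 0 to 3 boxes with each other gap from 5 to 13. The elements of the ER genes among them are shown with both parts in capitals, read along the strand of the CCAAT box.
Dnajc3: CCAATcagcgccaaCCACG
Canx: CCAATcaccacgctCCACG
Pdia6: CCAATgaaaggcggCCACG
Calr: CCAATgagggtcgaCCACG
Syvn1: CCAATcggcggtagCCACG
Hsp90b1: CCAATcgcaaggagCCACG
Xbp1: CCAATcgcggacggCCACG
Derl3: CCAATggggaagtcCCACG
Ero1lb: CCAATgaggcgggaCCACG

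Canx and Calr encode lectin chaperones, Pdia6 a disulfide isomerase, Ero1lb an ER oxidase, Syvn1 and Derl3 parts of the degradation machinery, Hsp90b1 the ER form of HSP90 and Xbp1 a transcription factor of the stress response. These elements lie at chr14:118937827-118937845 (plus strand), chr11:50325800-50325818 (minus), chr12:17266491-17266509 (plus), chr8:84847075-84847093 (plus), chr19:6046532-6046550 (plus), chr10:86705638-86705656 (minus), chr11:5520906-5520924 (plus), chr10:75893242-75893260 (minus) and chr13:12565682-12565700 (minus), in the order above. Their middle bases differed from element to element. Hsp90b1 shares its promoter with Ttc41, and the element lies 145 bp upstream of the Hsp90b1 start. The other 2 members with the gap were Pan2 and Pygo2. Over the 9 elements shown, signals were between 6.54 (Derl3) and 16.1 (Dnajc3) in replicate 1 and between 11.5 (Xbp1) and 18.9 (Ero1lb) in replicate 2. The share of windows with CCACG anywhere was 40.7% in the members and 38.7% in regions with neither motif. The genes in this paragraph were chosen by the match, not by the rule for named genes.

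Among globin and heme genes, Hba-a2 had signals of 13.1 and 17.5, Hba-a1 11.8 and 11.4, Ppox, which makes protoporphyrin IX, 12.1 and 12.7, and Tfrc, the transferrin receptor, 9.70 and 13.5. Hba-a1 and Hba-a2 are near-identical genes, and the box of each region read CCAATGA on the strand of the gene. The Hba-a1 box lay 75 bp downstream of the nearest annotated transcript start, which need not be the main start of the gene. Its position is therefore not comparable with that of the Hba-a2 box. The heat shock list was led by the shared promoter of Tcp1, a chaperonin subunit, and Mrpl18, with signals of 16.7 and 18.9, before those of Hspa14, Dnajb1 and Hsf1. Of the splicing factors, Hnrnpc was the strongest, with signals of 12.6 and 15.3, and Srsf6, Srsf3 and Hnrnpa2b1 followed.

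Promoters of NF-Y's own subunits were accessible in all 3 cases. Nfyc, on the minus strand, had 2 member regions, next to different annotated starts. The region at chr4:120815628-120816237 had signals of 16.3 and 16.1 and boxes 135 and 94 bp upstream of a start inside the gene. The region at chr4:120825060-120825409 had signals of 7.62 and 7.76 and boxes 378 and 414 bp downstream of a start farther upstream in the gene. Nfyb had signals of 14.7 and 14.1 and boxes 65 and 118 bp downstream of the nearest start. Another region of Nfyc, at chr4:120825572-120826160 and so upstream of both along the gene, held neither motif, with signals of 11.2 and 14.01. The region of Nfya also held neither, with signals of 10.1 and 9.77.

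Other motifs in the member windows were counted by exact match on either strand. The GC box GGGCGG of SP and KLF factors was in 63.5% of members (interval 61.3 to 65.6%), 58.6% of regions with the ETS motif alone, 55.8% of regions with neither and 58.2% of all promoter regions. The GATA motif (GATA with A or T before it and A or G after it) was in 253 members (12.5%, interval 11.1 to 13.99%), 9.26% of regions with ETS alone, 20.1% of those with neither (interval 18.96 to 21.2%) and 16.4% of all. The TATA box TATAAA was in 3.35% of members, 2.79% of regions with neither and 2.66% of all. The NRF1 motif was in 6.56% of members, 10.6% of regions with ETS alone and 8.66% of all. The E2F motif (TTT with C or G and then GCGC) was in 39 members (1.92%) and 1.23% of all promoter regions. Shares of the E-box CACGTG were 8.14% in the members and 8.48% in all.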

How the data were processed

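ATAC-seq peak lists of 2 G1E replicates were used, and the reads were not used here. Per the labels, the build is mm10. For the aligner, the peak caller and the placement of reads with several possible origins, a statement is not given in the sources used here. The authors deposited per-replicate lists thresholded by the irreproducible discovery rate, in which each peak has a signal value and a −log10 p value. The deposited signal is the peak's own value, is not scaled between libraries and was used only within a replicate's list, to pick each region's strongest peak, to rank regions and to give medians of groups of regions. The −log10 p only broke ties of signal. Overlapping or touching peaks of both replicates were merged, each region was represented by its peak of highest signal, and regions within 1000 bp of a GENCODE M21 transcript start of a protein-coding gene were promoter regions. Windows of 201 bp came from the GRCm38 (mm10) genome of RefSeq. Motifs were matched exactly on both strands. Positions and spacings refer to the centre of the 5 letters CCAAT, and the median percentile is the rank in a replicate's merged list. Intervals are 95% Clopper-Pearson intervals and cover counting error only. Depth is unknown, so absence from a list does not mean closed chromatin.

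With 1 group of 2 samples there was no contrast, and no test was run. Motif matching was tested on simulated windows. The genes named are the 12 members with the highest and the 4 with the lowest mean percentile, 8 of the 11 with 4 boxes, the most found, taken by mean percentile, of which some are described, the 4 strongest members of each gene list and the NF-Y subunits; others are said to be chosen otherwise or are members of a list. Some genes of the lists are not reported here by name. Members and lists were chosen with earlier results of these data known. Python 3.11.15, numpy 2.4.6, pandas 2.3.3, scipy 1.17.1, pysam 0.24.0 and matplotlib 3.10.9 were used. Alternatives covered the window, the summit, the lists, overlap, distance, start sites, ETS exclusion, the box string and leaving out each replicate.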

Additional observations from a re-analysis of the deposited data

How the results depend on the processing

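Of 156 values recomputed under 13 alternatives, 116 stayed within the limit set for them, 40 moved by more and 0 changed sign. Only the median box position and the members' lead in percentile over regions with neither motif could change sign. The limit was the spread between replicates, the binomial interval for shares and, for the number of members, 1.5 times the main count. For the median spacing that spread was 0, so any change counted as a move. For the median box position, the spread came from leaving out each replicate, which was also among the alternatives judged. The number of members ranged from 1613 (50 bp each side of the summit) to 2966 (CCAAT alone), and 74.9% of the members were found again with 50 bp. No paired analysis was possible because there is 1 group.

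With 50 bp on each side of the summit, the CCAAT share of promoter regions was 19.8%, members with 2 or more boxes 18.9%, the median spacing 35 bp, the share of boxes 40 to 140 bp upstream 50.9%, the median distance to the summit 20 bp, the median percentile of members 82.4 and their lead over regions with neither motif 20.3 percentile points (main value 22.2). Pairs on 1 strand 29 to 32 bp apart were then 30.1% (main value 20.6%). With 150 bp these were 28.8%, 31.1%, 46 bp, 43.9% and 38 bp for the first 5. With CCAAT alone as the box, the share was 39.5%, members with 2 or more boxes 41.1%, spacing 41 bp, the upstream band 43.99%, the summit distance 35 bp, the percentile 77.8 and the lead 21.4. The lenient lists gave a share of 23.7%, a percentile of 87.5, a width of 491 bp and a lead of 18.4. The CCAAT share was 25.4% within 2000 bp of a start and 28.01% with outermost starts, and the lead was 23.4 and 20.8, against 20.3 with the conservative list and 20.5 within 500 bp. The summit of replicate 2 gave a distance of 31 bp, and without the ETS exclusion the median position was -60 bp.

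Leaving out each replicate gave CCAAT shares of 24.2 to 24.5%, leads of 28.02 to 28.5, positions of -62 to -60 bp, summit distances of 31 to 33 bp, percentiles of 79.3 to 80.7 and widths of 477 to 495 bp. The lead and the 29 to 32 bp share were added after seeing the data. Unknown depth limits all of them, and the cause of the moves was not tested.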

Other observations

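Symbol families with at least 20 genes at a promoter region show where else members were found. Of 40 such families, apart from the histones, the shares of genes with a member were 10 of 21 for Ankrd (47.6%, 95% exact interval 25.7 to 70.2%), 13 of 30 for Rbm (43.3%, 25.5 to 62.6%), which encode RNA-binding motif proteins, and 12 of 29 for Zbtb (41.4%, 23.5 to 61.1%), transcription factors with BTB and zinc finger domains. The lowest shares were 6 of 48 for Eif (12.5%, 4.73 to 25.2%), which encode translation initiation factors, 4 of 29 for Ddx (13.8%, 3.89 to 31.7%), 3 of 20 for Mettl and 7 of 44 for Mrpl (15.9%), proteins of the mitochondrial ribosome. Genes of cytosolic ribosomal proteins had 8 of 40 for Rpl and 6 of 37 for Rps (16.2%). The 252 Zfp genes had 73 with a member (28.97%, 23.4 to 34.99%), close to the 27.0% of all genes, and their members were at median percentiles of 85.8 and 87.9. These families were picked after their values were seen.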
